A study of Mus musculus with 19 samples.

Results

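The levels of 8 genes of astrocyte water, endfoot and ion transport were compared across hippocampal cell samples: *Aqp4*, *Mlc1*, *Hepacam*, *Dag1*, *Dtna*, *Atp1b2*, *Slc4a4* and *Slc12a2*. They were chosen by name, and each was the only entry with its symbol among the 60567 genes listed. RNA was sequenced from cells sorted by FACS from the hippocampus of male C57bl6 mice of 9 months. An adeno-associated virus (AAV) had been injected in the CA1 region to express GFP, with or without SOCS3, an inhibitor of JAK2-STAT3 signalling. The WT-GFP group (7 samples of GFP+ astrocytes) were wild type littermates that received AAV-GFP. The APP-GFP group (4 samples) were APP/PS1dE9 mice, which carry chimeric mouse/human App with the Swedish mutation among their transgenes, and also received AAV-GFP. The APP-SOCS3 group (5 samples) were APP/PS1dE9 mice given AAV-SOCS3 with AAV-GFP. From WT-GFP mice 3 samples of GFP- cells were also sequenced. All vectors used gfaABC1D, a synthetic promoter derived from that of GFAP, so GFP marked infected astrocytes, and non-infected astrocytes stayed with microglia, neurons and oligodendrocyte precursor cells in the GFP- samples. The study gives its numbers of astrocyte samples as numbers of mice, and its methods say that both hippocampi of a mouse were sorted separately. The labels do not tie samples to mice.

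Perivascular endfeet are the astrocyte processes that wrap brain blood vessels. There the water channel aquaporin 4 is held by the dystrophin complex, which includes alpha-dystrobrevin (*Dtna*) and is tied to the basal lamina by dystroglycan (*Dag1*). MLC1 and GlialCAM (*Hepacam*) form a membrane complex of astrocyte junctions and endfeet that is needed for volume regulation and is altered in megalencephalic leukoencephalopathy. The beta 2 subunit of the sodium pump (*Atp1b2*) sets the sodium gradient together with an alpha subunit, the sodium bicarbonate cotransporter NBCe1 (*Slc4a4*) uses that gradient to move bicarbonate, and NKCC1 (*Slc12a2*) carries sodium, potassium and chloride into cells.

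Levels are normalized read counts, that is reads on a gene divided by a factor that puts the samples on 1 scale. Between 19331876 and 32621917 reads lay on genes per sample, and 1 read was worth 0.756 to 1.18 of these units. The number of genes detected ran from 15575 to 26757 in GFP+ samples and from 30807 to 31897 in GFP- samples, and 4 GFP+ samples had fewer than 20000 (WT-GFP replicates 1, 2 and 3 and APP-GFP replicate 2). *Socs3* was at 13296 to 37750 in APP-SOCS3 astrocytes, against 438 to 1639 in the other GFP+ samples, and the GFP- samples, which were not given this vector, held 10320 to 17689 of the mouse transcript. All 10 astrocyte markers examined were higher in the GFP+ than in the GFP- fraction, and their mean in GFP- cells was 3.18 to 17.2% of that in GFP+ astrocytes, with a median of 7.18%.

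Start sites were found in the RefSeq promoter table (GRCm38.p6) for 4 of the 8 genes. The promoters of *Mlc1* and *Hepacam*, both much higher in GFP+ astrocytes, are shown beside that of *Dag1*, which did not differ between the cell fractions, and of *Slc4a4*, the most variable of the 6 genes higher in astrocytes. Each run holds 250 bases before the start and 50 after it, 5′ to 3′, and capitals mark CG dinucleotides.
*Mlc1*, chr15:88978504-88978803, minus strand: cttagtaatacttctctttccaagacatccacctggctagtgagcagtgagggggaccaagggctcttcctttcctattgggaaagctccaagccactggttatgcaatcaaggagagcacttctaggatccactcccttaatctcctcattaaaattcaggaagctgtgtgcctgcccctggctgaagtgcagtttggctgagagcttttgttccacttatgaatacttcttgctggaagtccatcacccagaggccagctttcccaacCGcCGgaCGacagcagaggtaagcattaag
*Hepacam*, chr9:37367356-37367655, plus strand: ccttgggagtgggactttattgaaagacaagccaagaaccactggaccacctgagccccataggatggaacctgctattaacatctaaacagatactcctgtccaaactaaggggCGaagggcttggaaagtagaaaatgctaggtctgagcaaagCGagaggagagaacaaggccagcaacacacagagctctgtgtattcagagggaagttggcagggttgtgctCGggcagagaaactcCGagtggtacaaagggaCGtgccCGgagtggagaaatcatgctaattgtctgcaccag
*Dag1*, chr9:108263909-108264208, minus strand: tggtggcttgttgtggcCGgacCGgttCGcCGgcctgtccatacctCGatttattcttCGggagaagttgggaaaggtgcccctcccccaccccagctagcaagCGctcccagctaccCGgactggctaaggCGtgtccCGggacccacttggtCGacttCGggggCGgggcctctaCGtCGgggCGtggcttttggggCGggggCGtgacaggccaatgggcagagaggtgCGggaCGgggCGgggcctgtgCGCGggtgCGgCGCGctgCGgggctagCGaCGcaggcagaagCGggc
*Slc4a4*, chr5:88887010-88887309, plus strand: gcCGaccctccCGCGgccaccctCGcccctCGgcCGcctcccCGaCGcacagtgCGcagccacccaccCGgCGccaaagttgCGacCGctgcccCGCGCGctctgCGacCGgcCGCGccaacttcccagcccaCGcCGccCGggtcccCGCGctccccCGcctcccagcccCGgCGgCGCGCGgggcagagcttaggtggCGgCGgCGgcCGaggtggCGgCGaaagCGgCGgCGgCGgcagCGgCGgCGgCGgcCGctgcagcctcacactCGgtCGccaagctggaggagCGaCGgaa
The *Mlc1* and *Hepacam* promoters held 3 and 6 CG dinucleotides and had a GC content of 49.7% and 50.7%. The *Dag1* and *Slc4a4* promoters held 30 and 50, with a GC content of 69.7% and 80.0%, against a median of 7 and 52.7% over 32851 promoters of the table. A second start of *Dag1* lay in the same CG-rich region, with 47 CG dinucleotides, whereas a second start of *Slc4a4* held 3. Both strands were searched for 4 motifs, the STAT letters TTCNNNGAA (in 8.30% of all promoters), the full palindromic NFI motif (0.0365%), its shorter site TTGGCA (14.1%), and TATAAA (13.6%). The only match in these genes was TTGGCA at position -39 from the start of *Hepacam*.

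The first comparison asked which cell fraction of WT-GFP mice the 8 transcripts came from. *Aqp4*, *Mlc1*, *Hepacam*, *Dtna*, *Atp1b2* and *Slc4a4* were higher in GFP+ astrocytes, 5.22-fold to 14.2-fold. *Slc12a2* was lower there, and *Dag1* did not differ beyond the spread of the samples. A gene was called where the unadjusted p of the limma test on log2(level + 1) was at most 0.05 and the fold change at least 1.5. By this rule 6 of the 8 were higher and 1 lower, and the same 7 had an adjusted p under 0.05. Of 26709 genes tested 42.8% were called, 9.25% as higher and 33.5% as lower (31.7% with an adjusted p under 0.05, and 43.4% by the unadjusted p alone), and the median log2 fold change of all of them was -1.31. That median was -1.50 with samples scaled to equal totals, -0.37 with edgeR and -0.67 with DESeq2 on whole reads. Calls over all genes were 2471 higher and 8948 lower with limma, 3323 and 5265 with edgeR, and 3173 and 5784 with DESeq2. The same 7 of the 8 genes were called, in the same direction, under each of these. The samples of both fractions did not overlap for 6 of the 8 genes, against 34.8% of all genes tested. Fewer cells of a type and less RNA per cell cannot be told apart in such samples.

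**Figure D1:**
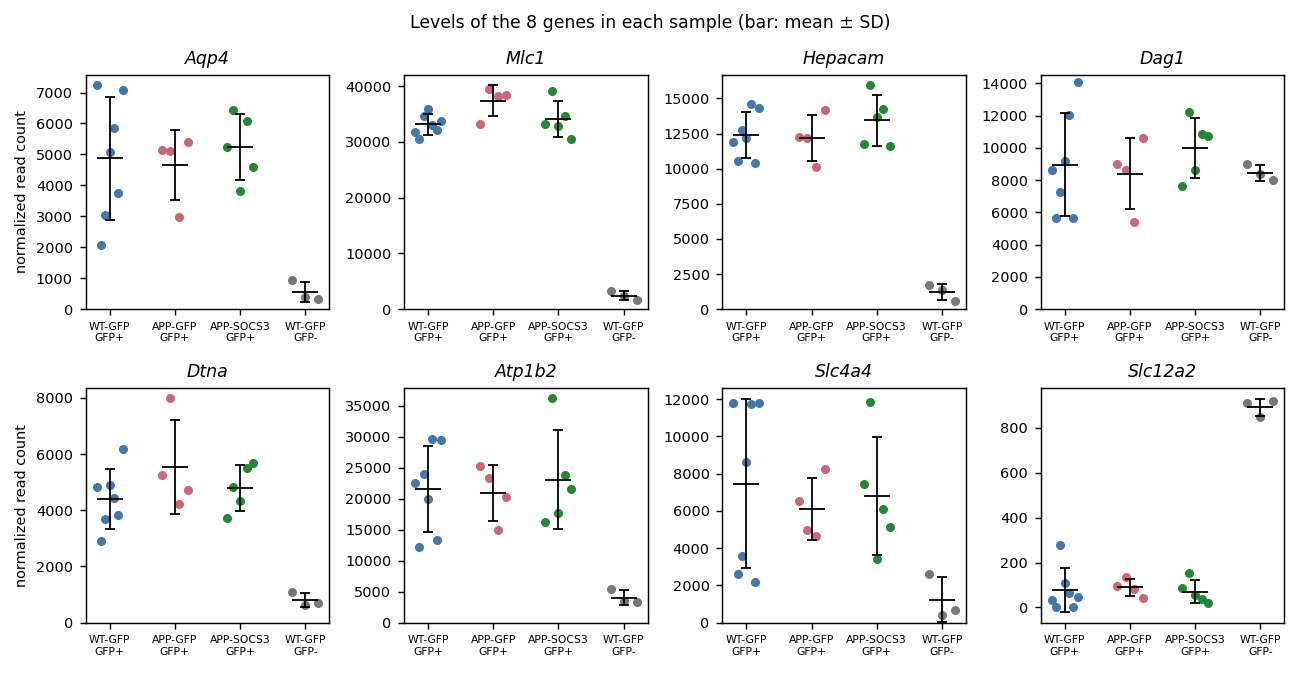
Normalized read count of each gene (y axis) in every sample of the 4 groups (x axis), with each point a sample and the bars giving the mean ± SD. For 6 genes the GFP- samples lie far below the astrocyte means, *Dag1* is level across all groups and *Slc12a2* is at 848 to 918 in GFP- cells against 0 to 280 in astrocytes, while the 3 astrocyte groups overlap for every gene.

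*Aqp4* encodes the main water channel of astrocyte endfeet. In WT-GFP astrocytes its level ran from 2076 to 7231 with a median of 5086. In the 3 GFP- samples it was 941, 390 and 331. Every astrocyte sample thus lay above every GFP- sample. The means were 4872 ± 1991 (SD, n = 7) and 554 ± 336 (n = 3), a log2 fold change of 3.17 (SE 0.437, adjusted p = 0.000277). The gene lies on chromosome 18 of mm10, from 15389394 to 15411015 on the minus strand.

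Of the genes that anchor this channel, *Dtna* was higher in astrocytes and *Dag1* did not differ between the fractions beyond their spread. *Dtna* encodes alpha-dystrobrevin, a cytoplasmic member of the dystrophin complex. Its level was 4395 ± 1060 in GFP+ astrocytes and 804 ± 265 in GFP- cells, where the samples read 1105, 607 and 698. This gave a log2 fold change of 2.46 (SE 0.257, adjusted p = 3.59e-05). *Dag1* encodes the precursor that is cut into alpha- and beta-dystroglycan. In astrocytes its level ran from 5637 to 14108 with a median of 8642. The GFP- samples read 9006, 8353 and 8000, within the range of the astrocytes. The log2 fold change was 0.01 with a 95% confidence interval of -0.61 to 0.62, which just spans a 1.5-fold difference in either direction. GFP- cells thus held 94.5% of the astrocyte level of *Dag1* but 18.3% of that of *Dtna*, the latter just above the 3.18 to 17.2% of the astrocyte markers. *Dag1* lies on chromosome 9 from 108204861 to 108263958 on the minus strand, and *Dtna* on chromosome 18 from 23310020 to 23659719 on the plus strand. Exons of *Dtna* share 90 bases with an antisense gene, *Gm47898*, and whether reads were counted by strand is not stated.

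*Mlc1* had the largest positive fold change of the 8 and the second smallest p of all 26709 genes tested. It encodes the membrane protein MLC1. Its level was 33116 ± 1823 in GFP+ astrocytes, from 30571 to 35913, and 3354, 2318 and 1631 in the GFP- samples. The lowest astrocyte sample was therefore far above the highest GFP- sample. Its log2 fold change was 3.83 (SE 0.182, adjusted p = 4.83e-06). *Hepacam* encodes GlialCAM, the adhesion molecule that brings MLC1 to cell junctions, and was close behind. It was at 12387 ± 1648 in astrocytes and 1733, 1392 and 589 in GFP- cells, which gave a log2 fold change of 3.45 (SE 0.282, adjusted p = 8.84e-06). The mean in GFP- cells was 7.35% of the astrocyte mean for *Mlc1* and 9.99% for *Hepacam*, within the range of the astrocyte markers. *Mlc1* lies on chromosome 15 from 88955883 to 88979007 (minus strand) and *Hepacam* on chromosome 9 from 37367368 to 37386573 (plus strand).

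The ion transporters differed from each other. *Atp1b2* encodes the beta 2 subunit of the sodium pump, also known as the adhesion molecule on glia. Its level was 21625 ± 6959 in GFP+ astrocytes and 5389, 3474 and 3259 in GFP- samples, and the lowest astrocyte sample stood at 12274. Astrocytes were higher by 2.38 on the log2 scale (SE 0.300, adjusted p = 0.000143). The GFP- mean was 18.7% of the astrocyte mean, just above the range of the astrocyte markers. The gene lies on chromosome 11 from 69599742 to 69605961 on the minus strand. *Slc4a4* encodes the sodium bicarbonate cotransporter of astrocytes. Its levels in astrocytes were 11805, 2582, 3557, 8612, 11722, 2170 and 11801 from replicate 1 to 7. The GFP- samples read 2619, 426 and 668. Here the fractions overlapped, since the first GFP- sample lay above WT-GFP replicates 2 and 6. The log2 fold change was 2.73 (SE 0.704, adjusted p = 0.0137), and it was 3.49 without GFP- replicate 1. The adjusted p was 0.0846 without GFP- replicate 2 and 0.0734 without GFP- replicate 3. *Slc4a4* lies on chromosome 5 from 88886817 to 89239656 on the plus strand.

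*Slc12a2*, the gene of NKCC1, was the only one of the 8 with more transcript in GFP- cells. The GFP- samples read 910, 848 and 918, from 836 to 1122 reads each. In WT-GFP astrocytes the levels were 34.9, 0, 280, 110, 65.7, 2.1 and 48.5 from replicate 1 to 7, and the highest rested on 238 reads. No astrocyte sample reached a level near the GFP- samples. The mean was 77.4 ± 97.1 in astrocytes and 892 ± 38.3 in GFP- cells, 11.5 times as high. The log2 fold change was -5.03 (SE 1.56, adjusted p = 0.0304), a value that depends on how levels near 0 are treated. It was -4.16 with a pseudocount of 10, -3.28 with edgeR (adjusted p = 0.0689) and -4.23 without WT-GFP replicate 2, and the adjusted p ran from 0.00458 to 0.104 over all alternatives. The gene lies on chromosome 18 from 57878678 to 57946821 on the plus strand. In the GFP- samples 6 of 6 oligodendrocyte precursor markers were also higher, with a summed level of 29195 to 43071 against 330 to 2198 in astrocytes. So were 10 of 10 endothelial markers (117328 to 185497 against 3197 to 29043), 8 of 8 mural cell markers (120195 to 157736 against 3326 to 33552) and 10 of 10 microglial markers (114398 to 191296 against 10860 to 37074). Of 8 ependyma and choroid plexus markers 3 were higher in GFP- cells (42303 to 116290 against 653 to 86278). Of 8 neuron markers 6 were higher there (1602 to 2967 against 98.9 to 642), and *Gad2* was at 0 in all WT-GFP astrocyte samples. Of 7 oligodendrocyte markers tested 2 were lower and 1 higher in GFP- cells, and their sum was 2584 to 3352 there against 4961 to 7349. The part of these cells in the level of *Slc12a2* was not tested.

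Within the GFP- samples, replicate 1 had the highest level of 7 of the 8 genes, all but *Slc12a2*. The same sample had the highest summed astrocyte markers, 82123 against 44217 and 32665 in replicates 2 and 3. The part of astrocytes in this order was not tested.

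Levels of different genes were compared per kilobase of annotated exon. In WT-GFP astrocytes the order per kilobase was *Mlc1* (11823 ± 651), *Atp1b2* (5294 ± 1704), *Hepacam* (3701 ± 492), *Dag1* (1406 ± 502), *Aqp4* (782 ± 319), *Slc4a4* (690 ± 421), *Dtna* (260 ± 62.6) and *Slc12a2* (7.08 ± 8.90). *Aqp4* and *Slc4a4* differed by less than either SD, and so did *Atp1b2* and *Hepacam* relative to the SD of *Atp1b2*. *Mlc1* was thus the most abundant of the 8 transcripts per length, and *Slc12a2* the least abundant. In GFP- cells *Dag1* came first per kilobase, at 1330 ± 80.3 (n = 3), before *Atp1b2* (989 ± 287) and *Mlc1* (869 ± 310), which did not differ beyond their SD. Reads were counted on constitutive regions of unknown length, so the order per kilobase is approximate.

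The 8 genes differed in how evenly they were expressed among WT-GFP astrocyte samples. The coefficient of variation (SD over mean) of *Mlc1* was 5.51%, and only 0.0256% of the 3901 genes whose mean reached 1000 had a smaller one. *Hepacam* followed with 13.3%, then *Dtna* (24.1%), *Atp1b2* (32.2%), *Dag1* (35.7%) and *Aqp4* (40.9%), against a median of 28.8% over those genes. *Slc4a4* had a coefficient of 61.0%, the highest of these 7, and 97.1% of the 3901 genes varied less. The same held in part in the other groups: the coefficient of *Mlc1* was 7.48% in APP-GFP and 9.34% in APP-SOCS3 astrocytes, where 4.19% and 10.2% of genes had a smaller one. That of *Slc4a4* was 26.9% and 46.7%.

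The deviations were shared among the genes. WT-GFP replicates 2 and 6 were among the 3 lowest samples for 8 of the 8 genes, and replicate 7 was among the 3 highest for 7 of the 8. In replicates 2 and 6 the summed astrocyte markers were also the lowest of the group, at 689389 and 569933 against 810130 to 955954 in the others. The share of all levels taken by *Apoe* was highest in these samples, at 6.84% and 5.78% against 3.22 to 4.09%. Similarly APP-GFP replicate 3 was the lowest of its group for 6 of the 8 genes, and had the lowest summed astrocyte markers (625772 against 735659 to 853792). APP-SOCS3 replicate 2 was the highest of its group for 7 of the 8, and had the highest astrocyte sum (1074170 against 681522 to 767534) and ependyma and choroid plexus sum (35374 against 1705 to 22304). Markers of other cells stood apart in some of these samples. WT-GFP replicate 2 had the highest summed endothelial (29043 against 3197 to 12745) and mural markers (33552 against 3326 to 10799) of its group, and replicate 6 the second highest endothelial sum (12745). APP-GFP replicate 3 had the highest summed microglial markers (80795 against 15364 to 66461). Such sums were also high in samples where the 8 genes were not low. APP-GFP replicate 2 had the highest endothelial (26695) and mural sums (20684) of its group. It was the lowest of that group for 0 of the 8 genes and the highest for 3. WT-GFP replicate 5 had the highest microglial sum of its group (37074) and was among the 3 highest for 6 of the 8. Whether the make-up of the samples accounts for these deviations was not tested.

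**Figure D2:**
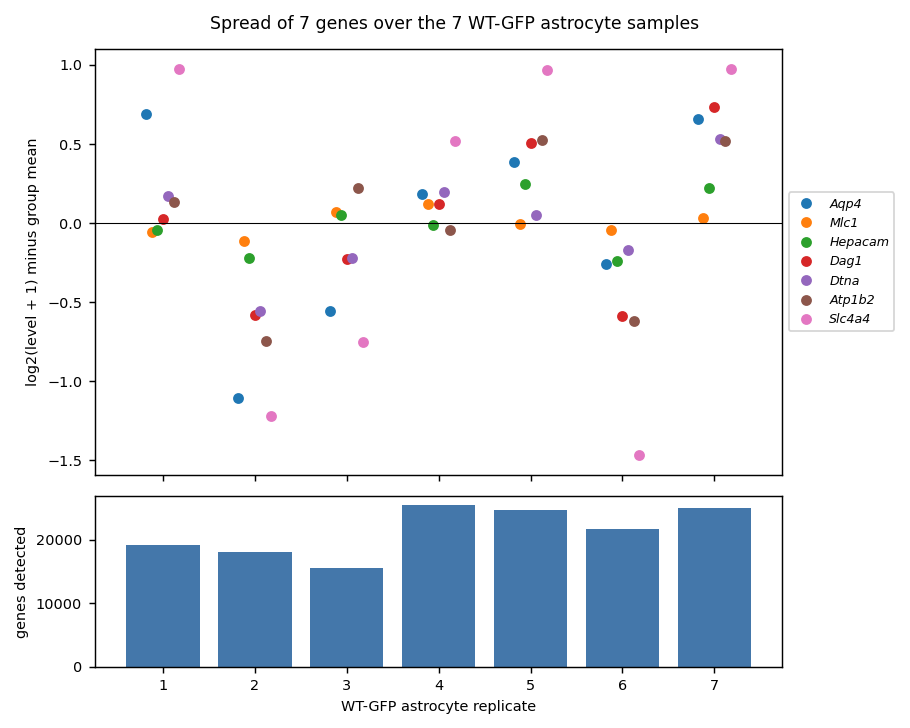
Deviation of log2(level + 1) from the group mean (y axis, upper panel) for 7 of the genes in each WT-GFP astrocyte sample (x axis), above the number of genes detected in that sample. *Mlc1* stays close to 0 in every sample, *Slc4a4* moves over the widest range, and replicates 2 and 6 lie below 0 for all 7 genes; *Slc12a2* is left out because of its levels near 0.

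The second comparison asked whether the transcripts differ between astrocytes of APP/PS1dE9 mice and of wild type littermates. None of the 8 genes was called. Of 22969 genes tested 2.23% were called, 1.66% as higher and 0.57% as lower (0.00435% with an adjusted p under 0.05). The groups overlapped for all 8, and 0.313% of all genes had groups that did not. Calls over all genes were 382 higher and 131 lower with limma, 412 and 247 with edgeR, and 205 and 325 with DESeq2. With limma 0 of the 8 had an unadjusted p under 0.05, against 2.36% of all genes, and 0 were called with edgeR or with DESeq2. *Aqp4* read 5132, 5122, 2986 and 5411 in the APP-GFP samples, within the range of WT-GFP. The log2 fold change was 0.02 with an interval of -0.69 to 0.73. *Dag1* read 8991, 8656, 5376 and 10622, with a log2 fold change of -0.05 (-0.64 to 0.53).

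*Mlc1* came closest to a difference. In APP-GFP astrocytes it read 33222, 39420, 38299 and 38426, so that 3 of 4 samples lay above the highest WT-GFP sample. The mean was 37342 ± 2792 (n = 4), a log2 fold change of 0.17 (SE 0.0922, interval -0.03 to 0.37, adjusted p = 0.999). Its interval lies wholly below a 1.5-fold change. Over all alternatives (limma, edgeR or DESeq2) its log2 fold change was 0.12 to 0.23, with an unadjusted p of 0.046 to 0.482. *Hepacam*, its partner, was at 12182 ± 1664 and had a log2 fold change of -0.02 (-0.32 to 0.27). *Dtna* read 5258, 7988, 4212 and 4705, with a log2 fold change of 0.33 (-0.16 to 0.81). The high value was that of APP-GFP replicate 2, a sample with 16471 genes detected and a summed level of oligodendrocyte markers of 19414 against 6324 to 6850 in the others. Its endothelial (26695), mural (20684) and oligodendrocyte precursor sums (1703) were also the highest of the group. Its ependyma and choroid plexus sum (698) was the lowest. The part of such cells in its *Dtna* level was not tested. Without this sample the log2 fold change of *Dtna* was 0.13, and it was -0.02 when WT-GFP replicates 1, 2 and 3, which also had fewer than 20000 genes detected, were left out as well.

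Of the transporters, *Atp1b2* was at 20933 ± 4551 in APP-GFP astrocytes, a log2 fold change of -0.003 (interval -0.55 to 0.55). *Slc4a4* read 6536, 4982, 4657 and 8238, between the low and high samples of WT-GFP, and its interval was -1.08 to 1.06. *Slc12a2* read 94.1, 138, 83.1 and 41.0, and its interval was -1.45 to 4.64. The intervals of *Mlc1*, *Hepacam* and *Atp1b2* lie within a 1.5-fold difference. Those of the other 5 genes reach past it in at least 1 direction, so a difference of that size may have been missed at this spread. Microglial markers summed to 15364 to 80795 in APP-GFP and 10860 to 37074 in WT-GFP astrocytes, and 0 of 10 were called.

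The third comparison asked what SOCS3 changes in astrocytes of APP/PS1dE9 mice. None of the 8 genes was called here either, against 5.70% of 22844 genes tested, 2.33% as higher and 3.37% as lower (0.00438% with an adjusted p under 0.05), and the groups overlapped for all 8 (2.01% of all genes did not overlap). Calls over all genes were 532 higher and 769 lower with limma and 398 and 925 with edgeR. Both edgeR and DESeq2 also called 0 of the 8, and limma gave 0 of the 8 an unadjusted p under 0.05, against 6.27% of all genes. *Aqp4* read 5235, 6450, 3803, 6078 and 4608 in APP-SOCS3 astrocytes, a log2 fold change of 0.18 (interval -0.29 to 0.65). *Mlc1* read 33205, 39037, 32917, 34710 and 30423, and its log2 fold change was -0.13 (-0.37 to 0.11). These intervals leave no room for a 1.5-fold fall of *Aqp4* or a 1.5-fold change of *Mlc1*, but that of *Aqp4* reaches past a 1.5-fold rise.

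Of the remaining genes, *Dag1* had the largest positive value, at 10008 ± 1853 (n = 5) and a log2 fold change of 0.27 (-0.18 to 0.73). *Hepacam* was at 13445 ± 1811 (0.14, interval -0.16 to 0.45) and *Dtna* at 4806 ± 816 (-0.18, interval -0.62 to 0.26). The transporters had *Atp1b2* at 23104 ± 7937 (0.11, interval -0.41 to 0.63) and *Slc4a4* at 6791 ± 3173 (0.07, interval -0.62 to 0.76). *Slc12a2* read 87.2, 152, 55.0, 37.2 and 22.0, all far below the GFP- samples, with a log2 fold change of -0.51 (-1.96 to 0.95). Only the intervals of *Mlc1* and *Hepacam* lie within a 1.5-fold difference, so a difference of that size may have been missed for the other genes. In the same comparison *Gfap*, the intermediate filament gene raised in reactive astrocytes, was called lower by 1.02 on the log2 scale (adjusted p = 0.647). All 10 microglial markers were called lower (summed level 8171 to 14423 against 15364 to 80795), as were 9 of 9 endothelial markers tested (956 to 5125 against 4808 to 26695) and 4 of 8 mural cell markers (2294 to 3961 against 4141 to 20684).

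Against WT-GFP astrocytes, which serve as the control in the second comparison as well, APP-SOCS3 astrocytes also had 0 of the 8 genes called. Of 22958 genes tested 5.21% were called, 3.19% as higher and 2.02% as lower (0.0305% with an adjusted p under 0.05). Separate groups were found for 0 of the 8 (0.566% of all genes). At the shares of all genes called in the 3 comparisons among astrocytes, 0 of 8 does not set these genes apart from others. The log2 fold changes ran from 0.04 for *Mlc1* (interval -0.15 to 0.22) to 0.22 for *Dag1* (-0.27 to 0.71), with 1.09 for *Slc12a2* (-1.64 to 3.82). The mean of *Slc12a2* was not higher, at 70.6 ± 51.4 in APP-SOCS3 against 77.4 ± 97.1 in WT-GFP astrocytes. Its positive value depends on how levels near 0 are treated, and the sign was negative with edgeR and with DESeq2. Again 0 of the 8 had an unadjusted p under 0.05 with limma, against 5.71% of all genes, and edgeR and DESeq2 called 0. Over all genes 733 were called higher and 464 lower with limma, 441 and 762 with edgeR, and 340 and 824 with DESeq2.

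**Figure D3:**
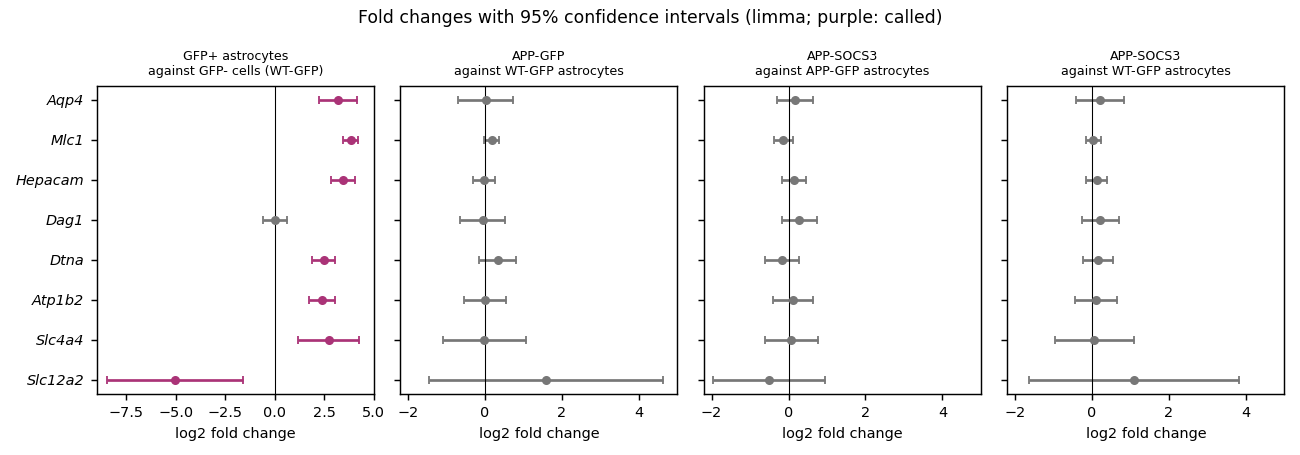
Log2 fold change (x axis) of each gene (y axis) in the 4 comparisons, with points for the limma estimate, bars for its 95% confidence interval and purple for called genes. The estimates are 2.38 to 3.83 for 6 genes and -5.03 for *Slc12a2* between GFP+ and GFP- cells, while every interval of the 3 comparisons among astrocytes spans 0.

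The sodium pump pairs an alpha with a beta subunit, and the ratio of 2 subunits within a sample does not depend on scaling between samples. The log2 ratio of *Atp1b2* to *Atp1b1*, the beta subunit typical of neurons, was 2.98 ± 0.266 in WT-GFP astrocytes and 1.07 ± 0.273 in GFP- cells. The samples ran from 2.72 to 3.40 and from 0.82 to 1.36 without overlap. The difference of 1.91 had an exact 2-sided permutation p of 0.0167, the smallest that 7 samples against 3 can give, and 0.0667 after adjustment over the 8 ratio tests run, of which 4 are given here. *Atp1b1* itself was at 2665 ± 542 in astrocytes and 1963 ± 691 in GFP- cells (log2 fold change 0.48, not called).

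Among the astrocyte groups the ratio did not differ beyond the spread. It was 3.08 ± 0.398 in APP-GFP (n = 4) and 2.90 ± 0.377 in APP-SOCS3 astrocytes (n = 5), with exact permutation p from 0.492 to 0.702 for the 3 comparisons. Exons of *Atp1b1* share 575 bases with *Nme7* on the other strand, and whether reads were counted by strand is not stated.

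**Figure D4:**
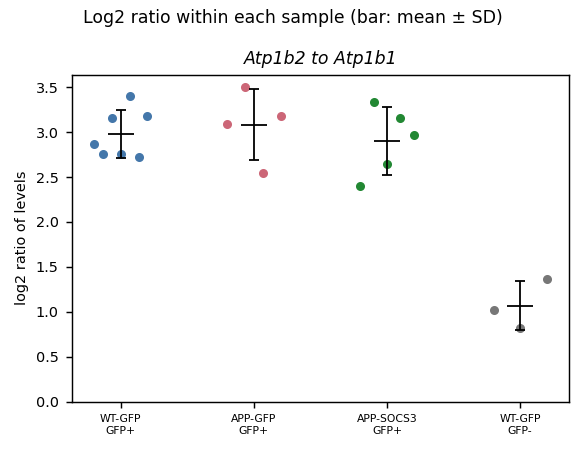
Log2 ratio (y axis) of *Atp1b2* to *Atp1b1* in every sample of the 4 groups (x axis), with bars for the mean ± SD. GFP- samples lie at 0.82 to 1.36, below every astrocyte sample, and the 3 astrocyte groups overlap.

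Genes that work with these 8 were examined as 7 lists with 85 genes in the table. Between GFP+ and GFP- cells, 17 of 80 tested were higher and 39 lower, or 70.0%, against 42.8% of all genes called, 9.25% as higher and 33.5% as lower. Where astrocyte samples are at 0 the fitted fold depends on the pseudocount, so only means are given for *Sntb1*, *Lama4*, *Trpv4*, *Car12* and *Slc12a5*, which were at 0 in 3 or 4 of 7 samples. Of 18 genes of the dystrophin complex and its glycosylation, 5 were higher and 4 lower, with a median log2 fold change of -0.85. Those with more transcript in astrocytes included *Dmd* (dystrophin, 3345 ± 433 against 1513 ± 210, 1.14) and the mannosyltransferase gene *Pomt1* (1.36). *Utrn*, whose product utrophin replaces dystrophin in endothelial and other cells, was lower (366 ± 138 against 3705 ± 2037, -3.26), as were *Sntb1* (54.3 ± 65.9 against 384 ± 110) and *Sntb2* (-1.72). *Dtnb*, beta-dystrobrevin, was not called, at 696 ± 311 against 805 ± 120.

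A list of 10 basal lamina genes held ligands of dystroglycan and other components, such as laminin beta and gamma chains. Of these 10 genes, 9 were lower in astrocytes and 0 higher, with a median log2 fold change of -3.94. Of all genes, 33.5% were lower. The exception was laminin alpha 2 (*Lama2*), at 901 ± 187 against 684 ± 417 and not called. Laminin beta 2 (*Lamb2*) was at 4698 ± 1889 against 15915 ± 5285 (-1.84), laminin gamma 1 (*Lamc1*) at 117 ± 76.3 against 1027 ± 357 (-3.47) and laminin alpha 4 (*Lama4*) at 20.3 ± 26.3 against 899 ± 337. Transcripts of *Lamb2* were thus also abundant in astrocytes. Of 6 other aquaporins tested, 4 were lower and 0 higher. *Aqp5* (2.47 ± 6.54 against 59.4 ± 42.2) and *Aqp1*, the water channel of the choroid plexus (72.2 ± 110 against 483 ± 281), were among them. *Aqp3* was at 0 in all astrocyte samples and at 14.6 ± 14.0 in GFP- cells. *Aqp11*, an intracellular channel, was at 1212 ± 264 against 1840 ± 306 (-0.62, adjusted p = 0.0712). *Aqp9*, which passes glycerol, was at 76.8 ± 52.1 against 19.3 ± 18.4 and was not called. *Aqp4* was thus the only aquaporin called higher in astrocytes by this test.

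Among 10 partners of MLC1 and GlialCAM and genes of volume regulation, 3 were higher and 5 lower. The chloride channel ClC-2 that binds GlialCAM (*Clcn2*) was at 3667 ± 1390 against 997 ± 380 (1.87). The receptor genes *Gpr37l1* (137139 ± 10034 against 16597 ± 6618, 3.14) and *Gpr37* (3.68) were higher too. The caveolin gene *Cav1* was lower (-3.94), with the volume-regulated channel subunit *Lrrc8c* (-1.77) and the osmosensitive channel *Trpv4* (113 ± 234 against 1491 ± 352). The entry of *Lrrc8a*, the essential subunit of the volume-regulated chloride channel, also covers *Phyhd1*, so its reads cannot be assigned to 1 of these genes. It was at 1051 ± 340 against 1340 ± 397, and *Kcnj10*, the potassium channel Kir4.1, at 261 ± 193 against 97.9 ± 43.3. Neither was called.

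Of 12 sodium pump genes tested besides *Atp1b2*, 4 were higher and 4 lower. The regulators *Fxyd1* (phospholemman, 2.51) and *Fxyd3* (4.35) were among those that rose, and *Fxyd6* (-2.57) and *Fxyd5* (-3.38) among those that fell. *Atp1b3* was lower too, at 1998 ± 394 against 3183 ± 145 (-0.70). Of 13 bicarbonate and proton transport genes, 2 were higher, the carbonic anhydrase *Car2* (2.63) and *Slc4a8* (1.36), and 7 lower, among them *Car4* (-3.19) and *Car12* (28.7 ± 67.4 against 423 ± 238). *Slc4a1*, the anion exchanger of red blood cells, was at 0 in all WT-GFP astrocyte samples and at 73.5 ± 50.4 in GFP- cells. Of 11 cation chloride cotransporters and their kinases, 3 were higher and 6 lower. The kinase *Stk39* that activates NKCC1 was lower (223 ± 148 against 1734 ± 340, -3.35), as *Slc12a2* was, and so was the neuronal *Slc12a5* (6.70 ± 10.3 against 179 ± 106). The potassium chloride cotransporter *Slc12a4* (7378 ± 2615 against 3268 ± 201, 1.08), *Wnk2* (1.15) and *Slc12a9* (0.79) were higher.

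**Figure D5:**
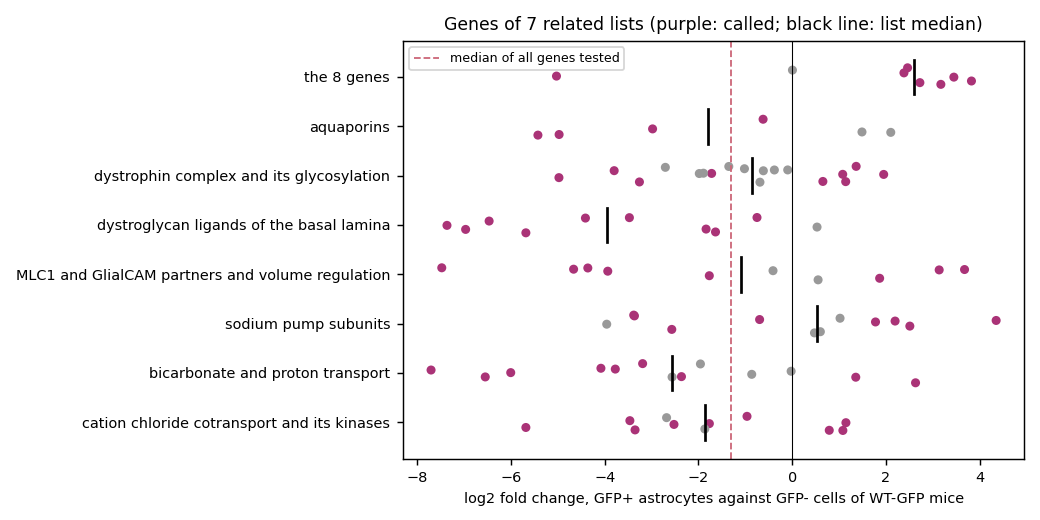
Log2 fold change between GFP+ and GFP- cells of WT-GFP mice (x axis) for the 8 genes and the genes of 7 lists (y axis), with purple points for called genes, black lines for list medians and a dashed line for the median of all genes at -1.31. The median of the 8 genes is 2.59, that of the basal lamina list (labelled dystroglycan ligands) -3.94, and every list holds genes on both sides of 0.

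Among the astrocyte groups few genes of the lists were called, and 0 of them had an adjusted p under 0.05. In APP-GFP against WT-GFP astrocytes 1 of 76 was higher and 0 lower, or 1.32% against 2.23% of all genes. This was the kinase *Wnk2* (736 ± 292 against 430 ± 124, log2 fold change 0.75, limma adjusted p = 0.999). In APP-SOCS3 against APP-GFP astrocytes 1 of 73 was higher and 7 lower, or 11.0% against 5.70% of all genes (2.33% higher and 3.37% lower). The lower ones included *Car4* (224 ± 122 against 1762 ± 1463, -2.66), the joint entry of *Lrrc8a* and *Phyhd1* (900 ± 123 against 1600 ± 406, -0.80), *Lrrc8d* (-0.72), *Fxyd5* (-2.37), *Fxyd6* (-1.27) and *Lama1*, which was at 0 in all APP-SOCS3 samples and at 51.6 ± 46.0 in APP-GFP samples. The higher one was *Fxyd2*, at 19.7 ± 23.0 against 1.32 ± 1.68. *Car4* and *Fxyd5* were among the genes of the GFP- fraction, at 11253 ± 3077 and 6331 ± 1725 there. *Fxyd6* (3268 ± 1422 against 569 ± 317), *Lrrc8d* (2739 ± 503 against 360 ± 378) and *Lama1* (170 ± 75.1 against 21.1 ± 23.4) were also higher in GFP- cells than in WT-GFP astrocytes. The joint entry of *Lrrc8a* and *Phyhd1* was not called between these fractions. Endothelial, mural and microglial markers fell in APP-SOCS3 against APP-GFP astrocytes. The part of such cells in these values was not tested. The joint entry of *Lrrc8a* and *Phyhd1* read 1055, 779, 865, 1002 and 801 in APP-SOCS3 and 1102, 2090, 1655 and 1552 in APP-GFP astrocytes, without overlap (2.01% of all genes did not overlap). In APP-SOCS3 against WT-GFP astrocytes 2 of 76 were higher and 4 lower (*Car4*, *Fxyd5*, *Fxyd6* and *Lama1*), or 7.89% against 5.21% of all genes. The higher ones were *Slc12a9* (0.60) and *Wnk3*, at 64.3 ± 37.9 against 30.4 ± 40.7 with 4 of 7 WT-GFP samples at 0.

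The genes whose pattern over the 19 samples was most like each of the 8 were sought among the 11427 genes whose mean reached 100. Likeness was the root mean square distance between log2(level + 1) centred on each gene's mean, and the samples share libraries and scaling, so it is a description. *Hepacam* had the closest neighbour of all, *Mmd2* at 0.156, followed by the lipid phosphatase gene *Plpp3* at 0.221. For *Mlc1* these were *Scg3* (0.202) and *Pla2g7* (0.216), for *Aqp4* *Gareml* (0.259) and *Gpm6a* (0.270), and for *Dtna* *Gramd3* (0.224) and *Jakmip1* (0.254). For *Atp1b2* they were *Hacd3* (0.199) and the sphingosine receptor gene *S1pr1* (0.209), one of the astrocyte markers. *Dag1* was nearest to *Ubr4* (0.165) and *Nisch* (0.197). The second neighbour of *Slc4a4* was *Aqp4* itself (0.500), after another of those markers, the receptor gene *Fgfr3* (0.482). *Slc12a2* had no close neighbour, with *Gng2* at 0.916 and *Heca* at 1.09. All its distances depend in part on levels near 0, such as 0 and 2.07 in WT-GFP replicates 2 and 6. Among the 8 themselves *Mlc1* and *Hepacam* were the closest pair (0.254), then *Dtna* and *Atp1b2* (0.329), and *Mlc1* and *Slc12a2* the farthest (3.47).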

How the data were processed

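RNA from sorted cells of 16 GFP+ and 3 GFP- samples was amplified as cDNA by PCR and sequenced. Per the labels and the study's methods, the authors aligned reads with STAR 2.4.0 on mm10 and counted them on constitutive regions of Mouse FAST DB genes. They deposited a signal per gene, which is the read count divided by the DESeq2 size factor of the sample. Whether counting used strand, and how reads with several positions were treated, is not given in the sources used here. Divided by what 1 read is worth in its sample, each level came out whole to within 0.01, so whole reads were recovered for the edgeR 4.0.16 and DESeq2 1.42.0 alternatives. PCR reads are not independent molecules, and p-values measure only the spread between these samples.

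Genes whose mean reached 10 in at least 1 of the groups compared were tested by limma 3.58.1 in R 4.3.3, with trend, on log2(level + 1), each pair of groups alone, since the deposited levels are not counts. The thresholds of the study (p up to 0.05 before adjustment, and 1.5-fold or more) defined a call, and Benjamini-Hochberg adjusted p are given beside them. Subunit ratios were compared by exact 2-sided permutation (SciPy 1.17.1, Python 3.11.15). The fit was also run on simulated reads in which every gene had the same excess spread. The real genes differ in spread, so that run does not show how the fit performs on them. The 8 genes and the lists were chosen with earlier results of these data known. Of each list, the text names up to 3 called genes in each direction with the smallest p, and a few pump, anchoring and partner genes whatever their values. Some genes that this rule selects are not reported here. For each of the 8 it names the 2 genes nearest in pattern. Alternatives changed the pseudocount, the minimum level, the scaling, the tool, the samples in the fit and the replicate block, and left out each sample in turn. Leaving out libraries with fewer than 20000 genes detected was chosen after seeing the data.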

Additional observations from a re-analysis of the deposited data

Results flagged for a closer look

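Of 30 sets of samples (each gene or ratio in each group of 4 to 10) that were checked for a sample far from the others, 2 held one, and chance gives about 1 in 20. The level of *Aqp4* in APP-GFP replicate 3 was 2985.59 against 5122 to 5411 in the other 3 samples, a gap of 0.881 of the whole range (limit 0.829). The level of *Slc12a2* in WT-GFP replicate 3 was 280.143, on 238 reads, against 0 to 110 in the other 6, a gap of 0.607 of the range (limit 0.568). That sample also had the highest summed ependyma and choroid plexus markers among the WT-GFP astrocyte samples (86278), and their part in the value was not tested.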

How the results depend on the processing

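The 7 calls between GFP+ and GFP- cells kept their direction and met the call thresholds (unadjusted p and fold) under every alternative run, although the adjusted p of *Slc4a4* and *Slc12a2* passed 0.05 under some, and 0 of the 8 genes were called in the 3 comparisons among astrocytes under any of them. In those comparisons the intervals span 0, so the sign of small values moved, and the cause was not tested. The design cannot show changes below the intervals given, and levels of *Slc12a2* in astrocytes rest on few reads.

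The number of genes called between GFP+ and GFP- cells was 6709 when means had to reach 100. In APP-GFP against WT-GFP it was 1 by adjusted p, 817 with no minimum level, 123 with that minimum and 991 with all 19 samples in one fit. In APP-SOCS3 against APP-GFP it was 1 by adjusted p and 650 with that higher minimum, and against WT-GFP 7 and 441. By adjusted p alone DESeq2 gave 24, 205 and 181 genes in these 3 comparisons and edgeR 1, 0 (1455 by unadjusted p) and 1, with none of the 8 among them. Leaving out 1 sample gave 8838 to 11679, 393 to 677, 1052 to 1836 and 904 to 1435 in the 4 comparisons.

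Log2 fold changes that turned sign were as follows. Between GFP+ and GFP- cells *Dag1* was -0.17 with equal totals and -0.12 to 0.10 without 1 sample. In APP-GFP against WT-GFP, *Aqp4* was -0.042 with edgeR, -0.062 with DESeq2 and -0.28 in libraries with at least 20000 genes detected, *Hepacam* 0.0019 with edgeR, *Dtna* -0.018 in those libraries and *Atp1b2* 0.0040 with equal totals. Without 1 sample the ranges were -0.16 to 0.22 for *Aqp4*, -0.10 to 0.062 for *Hepacam*, -0.18 to 0.15 for *Dag1*, -0.13 to 0.15 for *Atp1b2* and -0.26 to 0.15 for *Slc4a4*. In APP-SOCS3 against APP-GFP, *Dtna* was 0.013 and *Slc4a4* -0.014 in those libraries. Without 1 sample the ranges were -0.022 to 0.29 for *Aqp4*, -0.29 to 0.013 for *Dtna*, -0.067 to 0.22 for *Atp1b2* and -0.16 to 0.29 for *Slc4a4*. In APP-SOCS3 against WT-GFP, *Aqp4* was -0.042, *Dtna* -0.0050 and *Slc4a4* -0.19 in those libraries, *Slc4a4* -0.11 and *Slc12a2* -0.088 with edgeR, and *Slc4a4* -0.13 and *Slc12a2* -0.14 with DESeq2. Without 1 sample the ranges were -0.013 to 0.077 for *Mlc1*, -0.070 to 0.22 for *Atp1b2* and -0.19 to 0.27 for *Slc4a4*.

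Without 1 sample the difference in log2 *Atp1b2* to *Atp1b1* ratio was 1.79 to 2.06 between GFP+ and GFP- cells, where leaving out a GFP- sample gives an exact permutation p of 0.0556, the smallest then possible. It was -0.034 to 0.28, -0.36 to -0.04 and -0.18 to 0.051 in the other comparisons.

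Same-numbered samples had deviations with a correlation of -0.08 to 0.15, so the numbers were not taken as a pairing. With the replicate block 10999, 663, 1132 and 1433 genes were called in the 4 comparisons, and 7, 0, 0 and 0 of the 8. With the block *Dag1* was -0.25 between GFP+ and GFP- cells, *Hepacam* 0.033, *Dag1* 0.11, *Atp1b2* 0.10 and *Slc4a4* 0.10 in APP-GFP against WT-GFP, and *Slc4a4* -0.041 in APP-SOCS3 against WT-GFP.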
